A study of Homo sapiens with 6 samples.

Results

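Glutathione is the most abundant small thiol of animal cells, a tripeptide of glutamate, cysteine and glycine. Cystine enters through the SLC7A11 exchanger and is reduced to cysteine, glutamate-cysteine ligase (a catalytic subunit, GCLC, and a modifier subunit, GCLM) joins cysteine to glutamate, and glutathione synthetase (GSS) adds glycine. Glycine is therefore a direct precursor, and serine supplies both glycine and, through transsulfuration, the carbon of cysteine. The 10 genes described here were taken by name from the deposited table: SLC7A11, GCLC, GCLM, GSS, the reductase GSR, the glutathione users GPX4 and GSTO1, and the breakdown enzymes CHAC1, CHAC2 and OPLAH. All 10 were found among the 16407 genes of the table, and all 10 passed the filter on low counts that left 12548 genes for testing.

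RNA came from C666-1, a human nasopharyngeal carcinoma cell line, kept for 24 h in serine- and glycine-removed medium (-SG) or in complete medium (CM). The -SG medium held no added serine or glycine, and CM held each at 0.4 mM. Both were a minimal essential medium without its non-essential amino acid supplement, with 4.5 g/L glucose, 10% dialyzed fetal bovine serum and antibiotics. Each medium had 3 libraries, numbered 1 to 3, and the comparison addresses what the tumour cells transcribe once neither amino acid is supplied. Separate cultures are not stated, so every p-value rests on library-to-library spread that may be technical, in 1 cell line.

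The libraries held 16612196 to 17030355 estimated counts. The libraries numbered 1 stood apart: their counts differed from those of other libraries in the same medium by a chi-square of 9.09 to 19.2 per gene, where 1 is sampling noise, beside 2.75 between -SG replicates 2 and 3 and 4.13 between CM replicates 2 and 3. Between media the chi-square was 9.30 to 34.2. By this measure -SG replicate 1 was nearer to CM replicate 1 (10.5) than to -SG replicates 2 and 3 (17.0 and 19.2). Of the epithelial markers, KRT7, KRT8 and KRT18 were each at 507 TPM or more in all 6 libraries (TPM is abundance per transcript length, scaled to an equal total per library) and EPCAM lay between 10.0 and 11.7 TPM, while CDH1, KRT5 and KRT14 stayed under 1 TPM. The 10 epithelial markers summed to 3683 to 4115 TPM in -SG and to 4554 to 4964 TPM in CM. KRT7 (1918 to 2128 TPM in -SG, 2644 to 2860 TPM in CM), KRT18 and KRT19 were lower in every -SG library than in every CM library. The other epithelial markers, KRT8, KRT17, EPCAM, TP63, CDH1, KRT5 and KRT14, overlapped between media. The 5 leukocyte markers of the table summed to 49.9 to 58.2 TPM in -SG and 69.0 to 78.3 TPM in CM, nearly all of it CD68, a lysosomal protein that other cells make too, with PTPRC at no more than 0.05 TPM. CD14 went the other way, at 1.23, 2.14 and 2.0 TPM in -SG and 0.88, 0.25 and 0.84 TPM in CM. The 6 fibroblast markers summed to 15.2 to 20.4 TPM in -SG and 15.9 to 20.5 TPM in CM. Whether the lower epithelial sum, the lower CD68 or the higher CD14 bears on the glutathione genes was not tested.

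Transcripts of the cystine importer, of the last enzyme of glutathione synthesis, of 1 glutathione user and of 1 breakdown enzyme fell when serine and glycine were withdrawn. SLC7A11, GSS, GSTO1 and OPLAH were lower in -SG in edgeR's quasi-likelihood test, with calls at an adjusted p under 0.05 (Benjamini-Hochberg), so 4 of the 10 genes were called lower and 0 higher. OPLAH passed the filter with only 2 of its -SG libraries at the cutoff. Its place in the counts of this paragraph therefore leans on CM, where it was higher. Of the 12548 genes tested, 4.22% were called lower and 2.73% higher. At an unadjusted p under 0.05, 7 of the 10 genes were lower and 0 higher, beside 14.4% lower and 12.9% higher of the genes tested. DESeq2 called 5 of the 10 lower and 0 higher, beside 5.87% lower and 3.99% higher of the genes tested. All 10 log2 fold changes were negative, with a median of -0.33, beside a median of -0.000702 over all genes tested. In 7 of the 10 genes every -SG library lay below every CM library, a pattern seen in 16.4% of all genes tested. Since these are whole-culture libraries scaled to a common depth, fewer expressing cells and less of the transcript per cell cannot be told apart.

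**Figure D1:**
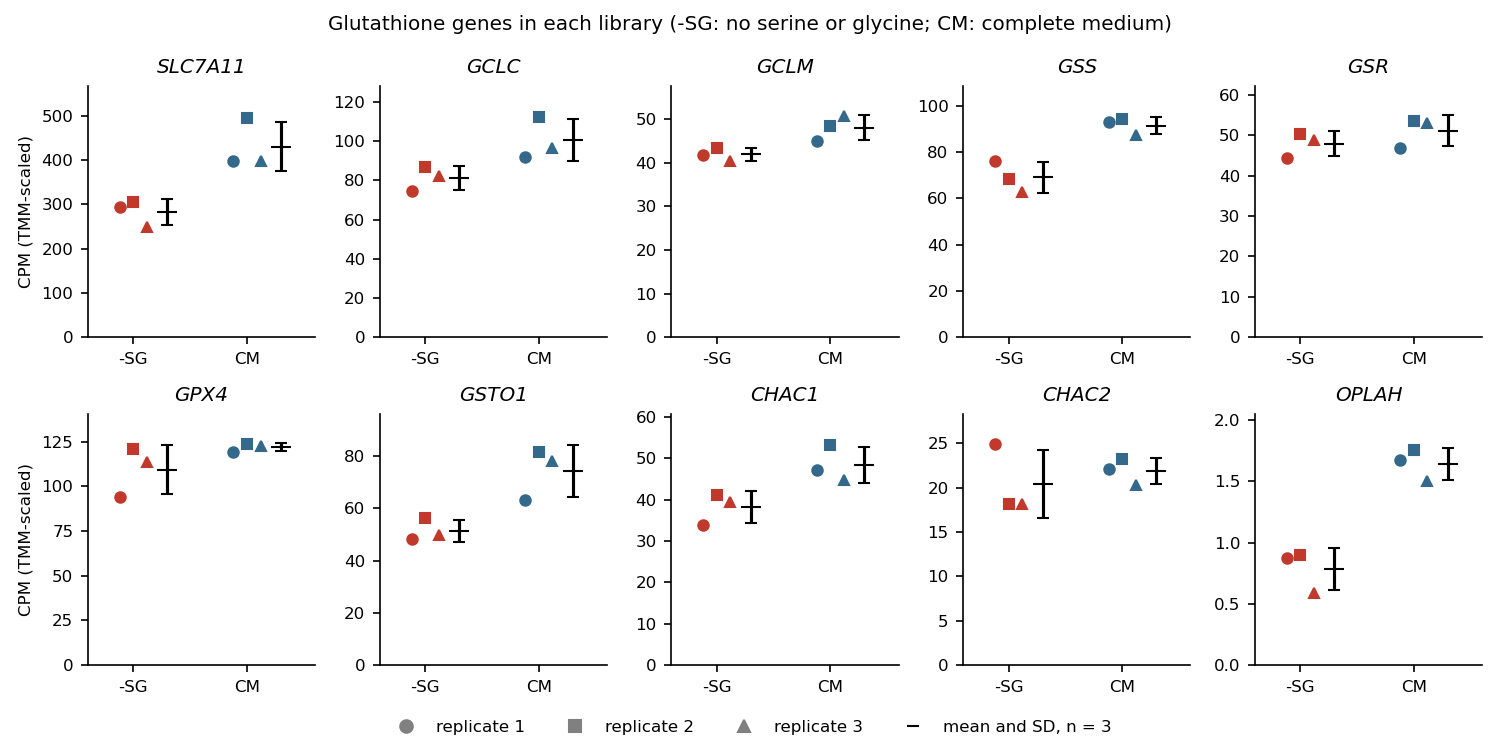
CPM (counts per library total, scaled by TMM, y axis from 0) of the 10 genes in each library, with -SG libraries left of CM libraries in each panel, marker shape giving the replicate number and bars the mean and SD (n = 3). SLC7A11, GCLC, GCLM, GSS, GSTO1, CHAC1 and OPLAH have all -SG points below all CM points, while GSR, GPX4 and CHAC2 overlap.

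SLC7A11 (NCBI Gene 23657, chromosome 4, 138164097 to 138242349 on GRCh38), the light chain of the cystine and glutamate exchanger known as system xc-, was at 294, 305 and 249 CPM in -SG and at 397, 494 and 399 CPM in CM. The groups did not overlap, and replicate 2 was the highest library in each. SLC7A11 averaged 282 ± 29.8 CPM in -SG and 430.0 ± 55.6 CPM in CM (SD, n = 3 each), so it fell by 34.3%, a log2 fold change of -0.61 (SE 0.104, 95% interval -0.84 to -0.37, adjusted p = 0.0217). Its partner SLC3A2, the heavy chain shared with other amino acid exchangers and named here for that role, averaged 1167 ± 50.2 CPM in -SG and 1213 ± 80.2 CPM in CM, a log2 fold change of -0.06 with a 95% interval of -0.23 to 0.12 (adjusted p = 0.680). The difference between the responses of the chains was not tested. The SLC7A11 call was lost without -SG replicate 2 (adjusted p = 0.0626), -SG replicate 3 (0.0868), CM replicate 2 (0.112) or CM replicate 3 (0.0883), fits in which edgeR called 0 genes of any kind, and it missed the threshold without both libraries numbered 1 (0.0953) and by limma on log2(TPM + 1) (0.0526).

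Of the 3 genes of glutathione synthesis, GSS was called and the ligase subunits were not. GSS (NCBI Gene 2937, chromosome 20, 34928432 to 34956027), which adds glycine to gamma-glutamylcysteine, was at 76.0, 68.5 and 62.6 CPM in -SG and at 92.8, 94.4 and 87.2 CPM in CM. Every -SG library was below every CM library, and the CM libraries lay close together. GSS averaged 69.0 ± 6.75 CPM in -SG and 91.4 ± 3.80 CPM in CM (SD, n = 3 each), so it fell by 24.5%, a log2 fold change of -0.41 (SE 0.0786, 95% interval -0.58 to -0.23, adjusted p = 0.0246). The GSS call was lost without -SG replicate 2 (adjusted p = 0.0806), -SG replicate 3 (0.0955), CM replicate 2 (0.120) or CM replicate 3 (0.0898), and by limma on log2(FPKM + 1) (0.0553), log2(FPKM + 0.1) (0.0540) and log2(TPM + 1) (0.0813).

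GCLC (NCBI Gene 2729, chromosome 6, 53497341 to 53545101), the catalytic subunit of the rate-limiting ligase, was at 74.6, 86.9 and 82.4 CPM in -SG and at 92.2, 113 and 96.6 CPM in CM. The groups did not overlap. Its log2 fold change was -0.31 (SE 0.0876, 95% interval -0.50 to -0.11, adjusted p = 0.0612), and it was called with the replicate number as a block (adjusted p = 0.00420), by DESeq2 (0.0323), with no filter on low counts (0.0443), without CM replicate 1 (0.0395) and without both libraries numbered 1 (0.00442). GCLM (NCBI Gene 2730, chromosome 1, 93885199 to 93909430), which raises the ligase's affinity for glutamate and eases its feedback inhibition by glutathione, was at 41.8, 43.4 and 40.4 CPM in -SG and at 45.0, 48.3 and 50.7 CPM in CM. Its groups did not overlap either, but the gap was narrow and the log2 fold change was -0.20 (SE 0.0728, 95% interval -0.36 to -0.04, adjusted p = 0.116, and 0.0526 with the block). It was called only without both libraries numbered 1 (adjusted p = 0.0237) among the 15 alternatives run.

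The proportion of the ligase subunits was compared within libraries. The ratio of GCLM to GCLC, compared as TPM and so per transcript length, was 0.421, 0.368 and 0.364 in -SG and 0.361, 0.322 and 0.392 in CM. The groups overlapped, with means of 0.384 ± 0.0316 in -SG and 0.358 ± 0.0349 in CM (SD, n = 3 each), a log2 difference of 0.10 (two-sided exact permutation p = 0.4, where 3 against 3 libraries cannot give less than 0.1). The difference was 0.0296 without CM replicate 2, 0.0370 without -SG replicate 1 and 0.17 without CM replicate 3, so its size depended on single libraries.

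**Figure D2:**
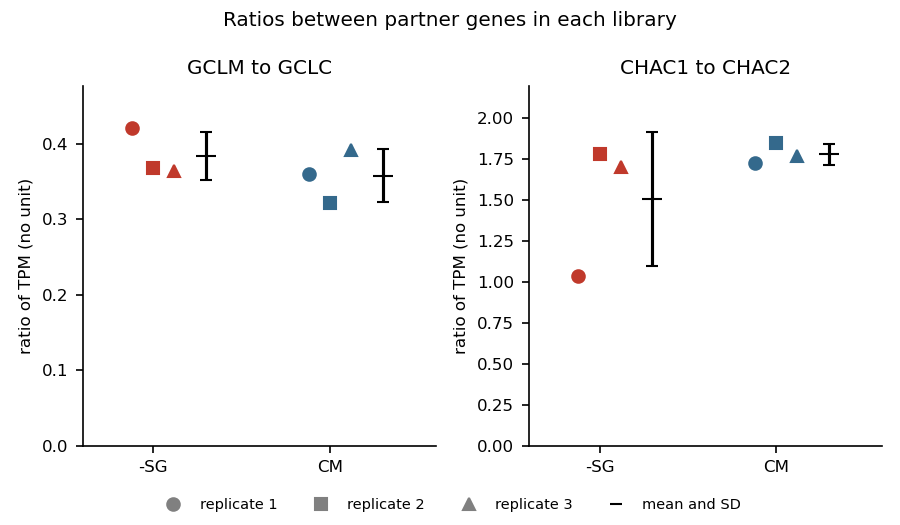
Ratio of TPM (y axis from 0, no unit) of GCLM to GCLC and of CHAC1 to CHAC2 in each library, -SG left of CM, with marker shape giving the replicate number and bars the mean and SD (n = 3). The GCLM to GCLC ratios overlap between media, and -SG replicate 1 stands apart at a CHAC1 to CHAC2 ratio of 1.04.

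Of the genes that recycle or use glutathione, GSTO1 fell and the reductase and the lipid peroxidase were not called. GSTO1 (NCBI Gene 9446, chromosome 10, 104254173 to 104267455), an omega-class transferase that also reduces dehydroascorbate and protein-glutathione mixed disulfides, was at 48.4, 56.2 and 49.7 CPM in -SG and at 63.2, 81.7 and 78.1 CPM in CM. No -SG library reached the lowest CM library, which was replicate 1. GSTO1 averaged 51.4 ± 4.17 CPM in -SG and 74.3 ± 9.80 CPM in CM (SD, n = 3 each), so it fell by 30.8%, a log2 fold change of -0.53 (SE 0.101, 95% interval -0.76 to -0.31, adjusted p = 0.0246). The GSTO1 call was lost without -SG replicate 2 (adjusted p = 0.0626), -SG replicate 3 (0.0960), CM replicate 2 (0.120) or CM replicate 3 (0.0972), and by limma on log2(TPM + 1) (0.0526).

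GPX4 (NCBI Gene 2879, chromosome 19, 1103994 to 1106779), the selenoenzyme that spends glutathione to reduce lipid hydroperoxides and so guards against ferroptosis, was at 93.9, 121 and 113 CPM in -SG and at 119, 124 and 122 CPM in CM. Replicate 1 of -SG was the low library, and replicate 2 of -SG lay within the CM range. The log2 fold change was -0.16 (95% interval -0.35 to 0.04, adjusted p = 0.271) and was -0.06 without -SG replicate 1 and -0.23 without -SG replicate 2. GSR (NCBI Gene 2936, chromosome 8, 30678066 to 30727846), which uses NADPH to return oxidised glutathione to its reduced form, was at 44.3, 50.3 and 48.9 CPM in -SG and at 46.7, 53.6 and 53.1 CPM in CM. The groups overlapped, and the log2 fold change of -0.10 had a 95% interval of -0.28 to 0.08 (adjusted p = 0.477) and ranged over -0.16 to -0.04 with 1 library left out. These intervals include 0 and also log2 differences down to -0.35 for GPX4 and -0.28 for GSR, so they do not show that either gene was constant.

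Among the breakdown genes OPLAH fell, CHAC1 missed the threshold and CHAC2 overlapped between media. CHAC1 (NCBI Gene 79094, chromosome 15, 40953471 to 40956512), a cytosolic gamma-glutamylcyclotransferase that cleaves glutathione and is a known target of the ATF4 stress response, was at 33.8, 41.1 and 39.5 CPM in -SG and at 47.3, 53.3 and 44.8 CPM in CM. The groups did not overlap, and the log2 fold change was -0.35 (SE 0.0955, 95% interval -0.56 to -0.13, adjusted p = 0.0545). CHAC1 was called with the block (adjusted p = 0.00778), by DESeq2 (0.0293), with no filter on low counts (0.0393) and without both libraries numbered 1 (0.0203). CHAC2 (NCBI Gene 494143, chromosome 2, 53767783 to 53775196), the slower enzyme of the same family, was at 24.9, 18.2 and 18.2 CPM in -SG and at 22.1, 23.2 and 20.3 CPM in CM. Replicate 1 of -SG held the highest value of all 6 libraries and the other two -SG libraries the lowest. The log2 fold change was -0.10 (95% interval -0.39 to 0.19, adjusted p = 0.651), and leaving out 1 library moved it both ways, to -0.27 without -SG replicate 1 (adjusted p = 0.0867), -0.0218 without -SG replicate 2 (0.945) and -0.0236 without -SG replicate 3 (0.939).

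Replicate 1 of -SG also stood apart in the proportion of the cyclotransferases. The ratio of CHAC1 to CHAC2, in TPM, was 1.04, 1.78 and 1.70 in -SG and 1.72, 1.85 and 1.76 in CM. The means were 1.51 ± 0.409 in -SG and 1.78 ± 0.0642 in CM (SD, n = 3 each), a log2 difference of -0.28 (two-sided exact permutation p = 0.3), and the difference was -0.03 without -SG replicate 1 and -0.42 without -SG replicate 2. CHAC2 lies on the opposite strand to ASB3 and the read-through gene GPR75-ASB3, both in the table, and no strand setting is stated, so reads of these genes cannot be told apart where they overlap. SLC7A11, GCLC and OPLAH also overlap annotated genes, which the table lacks, so the same limit holds for them.

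OPLAH (NCBI Gene 26873, chromosome 8, 144050322 to 144063961), the ATP-dependent 5-oxoprolinase that returns the product of the cyclotransferases to glutamate, was scarce. It held 15, 15 and 10 counts in -SG and 28, 29 and 25 counts in CM, or 0.874, 0.896 and 0.589 CPM in -SG and 1.67, 1.75 and 1.501 CPM in CM. Every -SG library was below every CM library by a wide margin on a low base. OPLAH passed the filter with 5 of 6 libraries at or above its cutoff of 0.595 CPM, 2 of them -SG libraries. The log2 fold change was -1.06 (SE 0.275, 95% interval -1.67 to -0.44, adjusted p = 0.0478), the most negative of the 10 with the widest interval, and it shrank to -0.24 on log2(FPKM + 1). The call was lost without CM replicate 1 (adjusted p = 0.0699), CM replicate 2 (0.182), CM replicate 3 (0.122), -SG replicate 2 (0.103) or -SG replicate 3 (0.158), with libraries scaled by their totals (0.0526) and by limma on log2(FPKM + 1), log2(FPKM + 0.1) and log2(TPM + 1) (0.0713, 0.0634 and 0.0785).

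**Figure D3:**
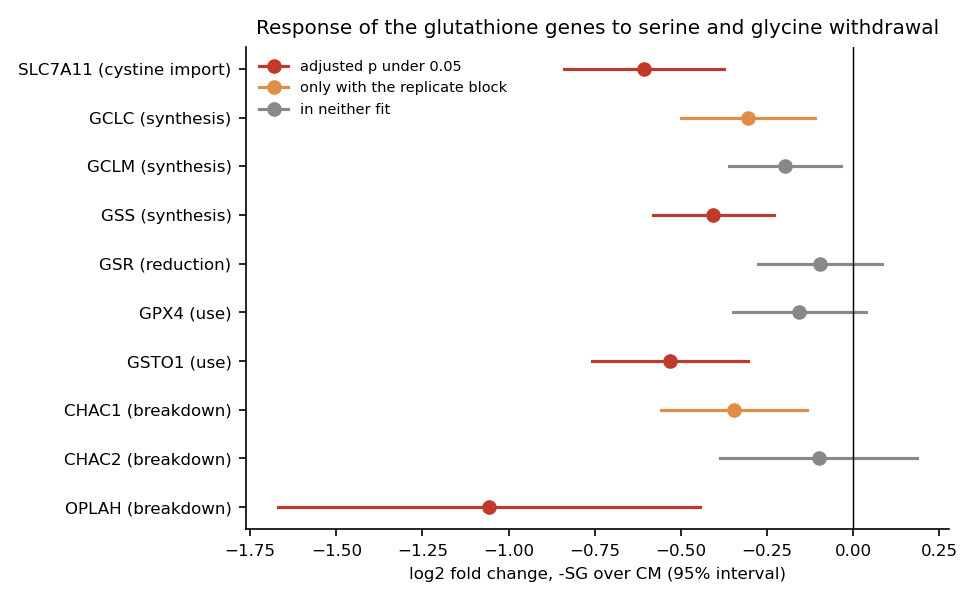
Log2 fold change of -SG over CM (x axis) with its 95% interval for the 10 genes, ordered by role, in red where edgeR's adjusted p is under 0.05, in orange where that holds only with the replicate block, and in grey otherwise. All points lie left of 0, SLC7A11, GSS, GSTO1 and OPLAH are red, GCLC and CHAC1 are orange, and the intervals of GSR, GPX4 and CHAC2 cross 0.

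With the replicate numbers as a block, 6 of the 10 genes were called lower and 0 higher, GCLC and CHAC1 joining the 4, beside 13.2% lower and 11.1% higher of all genes. Compared within number, 9 of the 10 genes were lower in -SG in all 3 pairs, the exception being CHAC2, whose pair numbered 1 had a log2 difference of 0.17. The share of all genes tested with this pattern was not computed, so this count has no background to be read against. The pair numbered 1 had the smallest difference for SLC7A11 (log2 difference -0.43, beside -0.70 and -0.68), for GSS (-0.29, beside -0.46 and -0.48) and for GSTO1 (-0.38, beside -0.54 and -0.65). In the same pair CHAC1 (-0.48, beside -0.37 and -0.18) and GPX4 (-0.35, beside -0.04 and -0.11) had their most negative differences.

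Levels per transcript length differed widely among the genes. In TPM averaged over 3 -SG libraries, GPX4 stood at 416 ± 35.8, GSTO1 at 190.2 ± 11.4, GSS at 83.6 ± 11.0 and SLC7A11 at 59.5 ± 7.27 (SD). CHAC1 followed at 56.6 ± 4.63, GCLC at 46.0 ± 2.56, CHAC2 at 39.2 ± 9.03, GSR at 34.2 ± 1.22, GCLM at 17.6 ± 0.976 and OPLAH at 0.413 ± 0.0987. In CM the order was the same, from GPX4 at 444 ± 1.79 TPM and GSTO1 at 263 ± 28.97 TPM to GCLM at 19.5 ± 0.880 TPM and OPLAH at 0.837 ± 0.0666 TPM. In CM no neighbours in this order overlapped across libraries. In -SG, SLC7A11 overlapped with CHAC1, GCLC with CHAC2, and CHAC2 with GSR. SLC7A11, at 87.2 ± 9.19 TPM in CM, was above all CM libraries of CHAC1 (71.5 ± 5.76 TPM). OPLAH was the only one of the 10 below the median gene of the table, with 25.03% of genes at a lower mean TPM, while GPX4 exceeded 97.9% of genes.

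Promoter windows from RefSeq, 250 bases before to 50 bases after a transcription start on GRCh38.p14, were available for 6 of the 10 genes: GCLM, CHAC2, GCLC, GSTO1, CHAC1 and GPX4. NRF2 (NFE2L2) is known to raise several glutathione genes through antioxidant response elements, and ATF4 acts through amino acid response elements, so the letters TGACNNNGC and TGATGNAA were searched on both strands. TGACNNNGC was found in GSTO1 and GCLM, 2 of the 6 genes, and in 13.3% of all 35116 windows. TGATGNAA was found in CHAC1 alone among the 6, and in 3.62% of all windows. The 6 genes had 9 windows, and a gene was counted if any of its windows matched. The shares are per window, so the 2 kinds of count are not alike. A match describes letters and is not a bound site, and these matches overlapped no CCAAT or GGGCGG match, the other motifs searched, which occur in 34.6% and 45.0% of windows. The windows holding the matches are shown, with the matched letters in capitals, 5′ to 3′ on the gene's strand. GSTO1 has matches starting at -226 and -161 from the start in a window inside its annotated span (chr10:104254642-104254941, plus strand), GCLM has one on the opposite strand at -34 (chr1:93909381-93909680, minus strand), and CHAC1 has TTGCATCA, the reverse complement of the searched letters, at -209 (chr15:40953221-40953520, plus strand).
GSTO1: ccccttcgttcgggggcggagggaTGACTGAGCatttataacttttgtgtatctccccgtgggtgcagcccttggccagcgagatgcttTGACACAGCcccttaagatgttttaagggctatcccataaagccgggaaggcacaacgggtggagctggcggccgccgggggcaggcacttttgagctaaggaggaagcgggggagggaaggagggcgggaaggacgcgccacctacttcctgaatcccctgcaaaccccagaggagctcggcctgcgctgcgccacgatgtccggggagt
GCLM: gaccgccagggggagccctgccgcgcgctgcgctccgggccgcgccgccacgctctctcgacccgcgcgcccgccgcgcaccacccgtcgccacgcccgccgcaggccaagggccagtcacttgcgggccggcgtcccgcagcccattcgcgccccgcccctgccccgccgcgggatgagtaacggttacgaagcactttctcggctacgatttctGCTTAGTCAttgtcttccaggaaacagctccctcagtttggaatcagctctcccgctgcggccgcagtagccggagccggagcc
CHAC1: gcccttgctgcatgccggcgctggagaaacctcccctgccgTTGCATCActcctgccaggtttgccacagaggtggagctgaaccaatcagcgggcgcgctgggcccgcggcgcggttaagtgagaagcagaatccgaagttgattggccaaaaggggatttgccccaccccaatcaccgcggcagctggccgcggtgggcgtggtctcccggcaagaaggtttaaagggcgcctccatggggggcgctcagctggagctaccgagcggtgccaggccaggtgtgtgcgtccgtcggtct

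Of the genes shown, CHAC1 had a log2 fold change of -0.35, GSTO1 one of -0.53 and GCLM one of -0.20. Transcripts of the regulators themselves were not called. NFE2L2, named for its role, averaged 200.3 ± 16.4 CPM in -SG and 207 ± 15.3 CPM in CM, a log2 fold change of -0.05 (95% interval -0.22 to 0.13, adjusted p = 0.725). ATF4, named for the same reason, averaged 564 ± 77.2 CPM in -SG and 513 ± 22.6 CPM in CM, a log2 fold change of 0.14 (95% interval -0.08 to 0.35, adjusted p = 0.396). Of 18 tested regulators of these genes, 0 were lower and 1 higher, with 0 lower and 4 higher at an unadjusted p under 0.05 and 0 lower and 2 higher by DESeq2. For TRIB3, an ATF4 target that feeds back on it, the log2 fold change was 0.24, with adjusted p = 0.0814 and a blocked value of 0.0273. In the blocked fit, 4 regulators were higher and 0 lower. Among them were MAFG and SQSTM1 (blocked adjusted p = 0.0197 and 0.0187). Without the block their log2 fold changes were 0.25 and 0.23 (adjusted p = 0.120 and 0.177), and both genes overlapped between media.

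The genes around these 10 were grouped by role. Of 124 listed genes of precursor supply, use, export, breakdown, NADPH supply and regulation, 97 were tested, and 14 were called lower and 1 higher, beside 4.22% lower and 2.73% higher of all genes tested. The blocked fit called 30 of them lower and 6 higher, beside 13.2% lower and 11.1% higher of all genes tested. The counts of single lists are to be read against the same shares. Their median log2 fold change was -0.11, and 69.1% were negative, beside 50.2% of all genes tested. In the fits without -SG replicate 2 or 3, or CM replicate 2 or 3, 0 of the 97 were called.

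**Figure D4:**
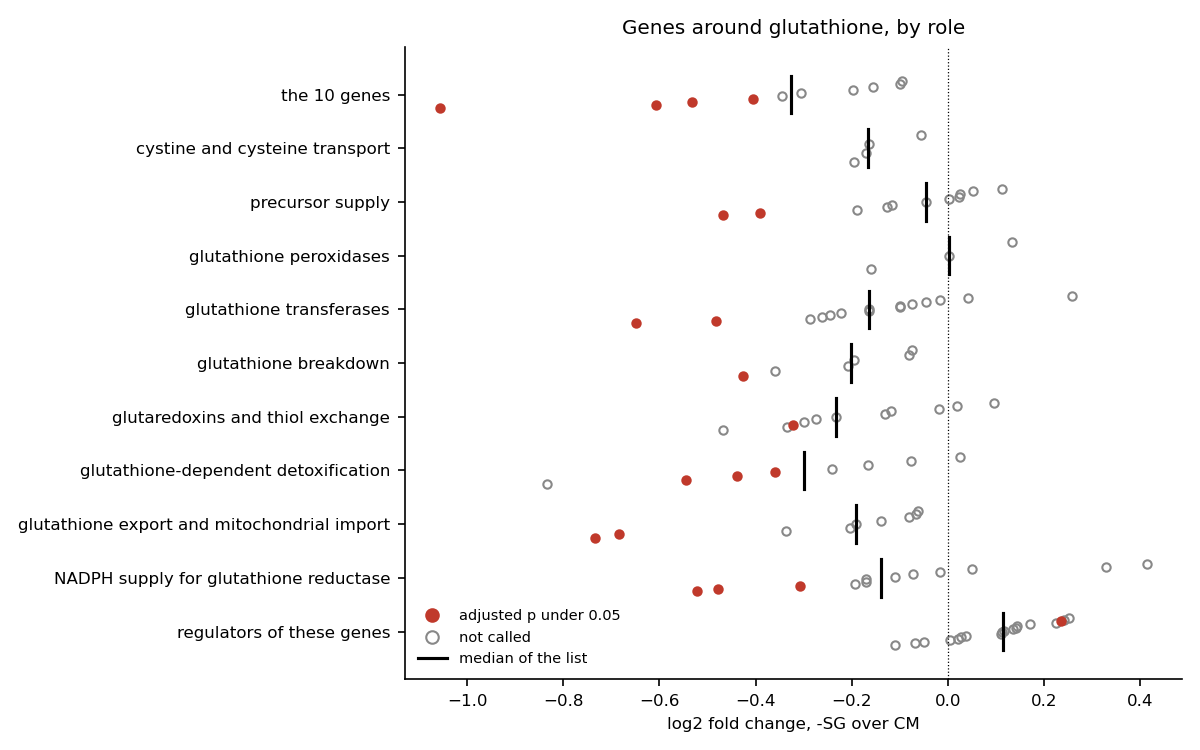
Log2 fold change of -SG over CM (x axis) for the 10 genes and for tested genes of each list, with filled points called at an adjusted p under 0.05 and vertical bars giving the median of the list. Called genes lie left of 0 in all lists that have any, except the regulators, where the called point lies right of 0.

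Both genes of the transsulfuration route to cysteine fell. CBS, which joins serine to homocysteine, averaged 123 ± 6.15 CPM in -SG and 169.8 ± 9.97 CPM in CM, a log2 fold change of -0.47 (adjusted p = 0.0196), and CTH, which releases cysteine from the product, averaged 132 ± 4.002 CPM in -SG and 173 ± 19.3 CPM in CM, a log2 fold change of -0.39 (adjusted p = 0.0276). They were the called genes among 11 tested genes of precursor supply, 2 lower and 0 higher, and the blocked fit called 3 lower, SHMT1 joining (adjusted p = 0.0844, blocked 0.0307). Of 4 tested genes of cystine and cysteine transport besides SLC7A11, 0 were called, with 1 lower at an unadjusted p under 0.05 and 0 called by DESeq2. The cysteine and glutamate carrier SLC1A1 had a log2 fold change of -0.17 (adjusted p = 0.179) and the lysosomal MFSD12, needed for cysteine entry into lysosomes and melanosomes, one of -0.20 (adjusted p = 0.286).

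Among 15 other tested transferases, 2 were lower and 0 higher, and 5 lower and 0 higher in the blocked fit, where GSTM3, GSTK1 and MGST1 joined (blocked adjusted p = 0.0442, 0.0237 and 0.0276). GSTZ1, the maleylacetoacetate isomerase of tyrosine breakdown, averaged 9.47 ± 0.771 CPM in -SG and 14.9 ± 3.19 CPM in CM, a log2 fold change of -0.65 (adjusted p = 0.0384). GSTM4, whose near-identical mu-class neighbours make its estimated counts uncertain, averaged 10.9 ± 0.486 CPM in -SG and 15.2 ± 0.451 CPM in CM, a log2 fold change of -0.48 (adjusted p = 0.0267). Of 3 other tested peroxidases, 0 were called, with 1 lower and 1 higher at an unadjusted p under 0.05 and 0 by DESeq2. For GPX1, the main cytosolic peroxidase, the log2 fold change was -0.16, with adjusted p = 0.128 and a blocked value of 0.0324. GPX8, of the endoplasmic reticulum, was at 0.13 (adjusted p = 0.154).

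Genes listed under export and mitochondrial import, detoxification and breakdown were lower in part. Of 9 tested genes of export and mitochondrial import, 2 were lower and 0 higher, and the blocked fit called 5 lower and 0 higher, ABCC3, ABCG2 and SLC25A39 joining (blocked adjusted p = 0.0167, 0.00703 and 0.0185). Those called without the block were SLC25A10 and SLC25A11, the dicarboxylate and oxoglutarate carriers once proposed to carry glutathione into mitochondria, with log2 fold changes of -0.73 and -0.68 (adjusted p = 0.0217 each). Of 8 tested detoxification genes 3 were lower and 0 higher without the block. ESD, which frees formate from S-formylglutathione, had a log2 fold change of -0.55 (adjusted p = 0.0289). SQOR, the sulfide oxidase of mitochondria, was at -0.44 (0.0328), and ADH5, which oxidises S-hydroxymethylglutathione, at -0.36 (0.0380). The blocked fit called 5 lower and 0 higher, GLO1 and HPD joining (blocked adjusted p = 0.0335 and 0.00438). Without the block the adjusted p-values of GLO1 and HPD were 0.195 and 0.224, and both genes overlapped between media. HPD was counted as listed, although it is an enzyme of tyrosine breakdown. Of 6 other breakdown genes 1 was lower and 0 higher, the aminopeptidase LAP3 at a log2 fold change of -0.43 (adjusted p = 0.0217), while the transpeptidase family member GGT7 was at -0.21 (adjusted p = 0.353).

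Of 11 tested glutaredoxins and thiol exchange genes, 1 was lower and 0 higher, and the blocked fit called 6 lower and 0 higher. GLRX3, TXN, TXN2 and TXNRD3 joined in the blocked fit (blocked adjusted p = 0.0111, 0.00444, 0.00537 and 0.0134). The mitochondrial and nuclear glutaredoxin GLRX2 had a log2 fold change of -0.32 (adjusted p = 0.0472). The thioredoxin reductase TXNRD1 was at -0.30, with adjusted p = 0.0501 and a blocked value of 0.00628. Of 12 tested genes that supply NADPH to the reductase, 3 were lower and 0 higher, namely TALDO1 of the pentose phosphate pathway at a log2 fold change of -0.52 (adjusted p = 0.0343), the mitochondrial isocitrate dehydrogenase IDH2 at -0.48 (0.0410) and the malic enzyme ME2 at -0.31 (0.0380). The blocked fit called 4 lower and 2 higher in this list, PGD joining the lower genes (blocked adjusted p = 0.0149). The 2 higher were NADK2 at a log2 fold change of 0.41 (blocked adjusted p = 0.00703) and ME1 at 0.33 (0.0376).

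The genes whose pattern over the 6 libraries lay nearest to SLC7A11, GSS and GSTO1 were also looked up. Likeness was the root mean square difference of centred log2 CPM over the 6 libraries, among 10583 other genes with a mean of at least 5 CPM. For SLC7A11 the nearest were the desmosomal plakophilin PKP3 (0.0356), the potassium channel gene KCNK15 (0.0392) and the gasdermin GSDME (0.0448), beside a median over all genes of 0.345. For GSS they were the signalosome subunit COPS7A (0.0249), NIT1 (0.0290), which hydrolyses deaminated glutathione, and the RNA helicase DDX56 (0.0310), beside a median of 0.247. For GSTO1 they were GLP2R (0.0354), the bicarbonate carrier SLC4A7 (0.0419) and COQ3 of ubiquinone synthesis (0.0424), beside a median of 0.306.

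**Figure D5:**
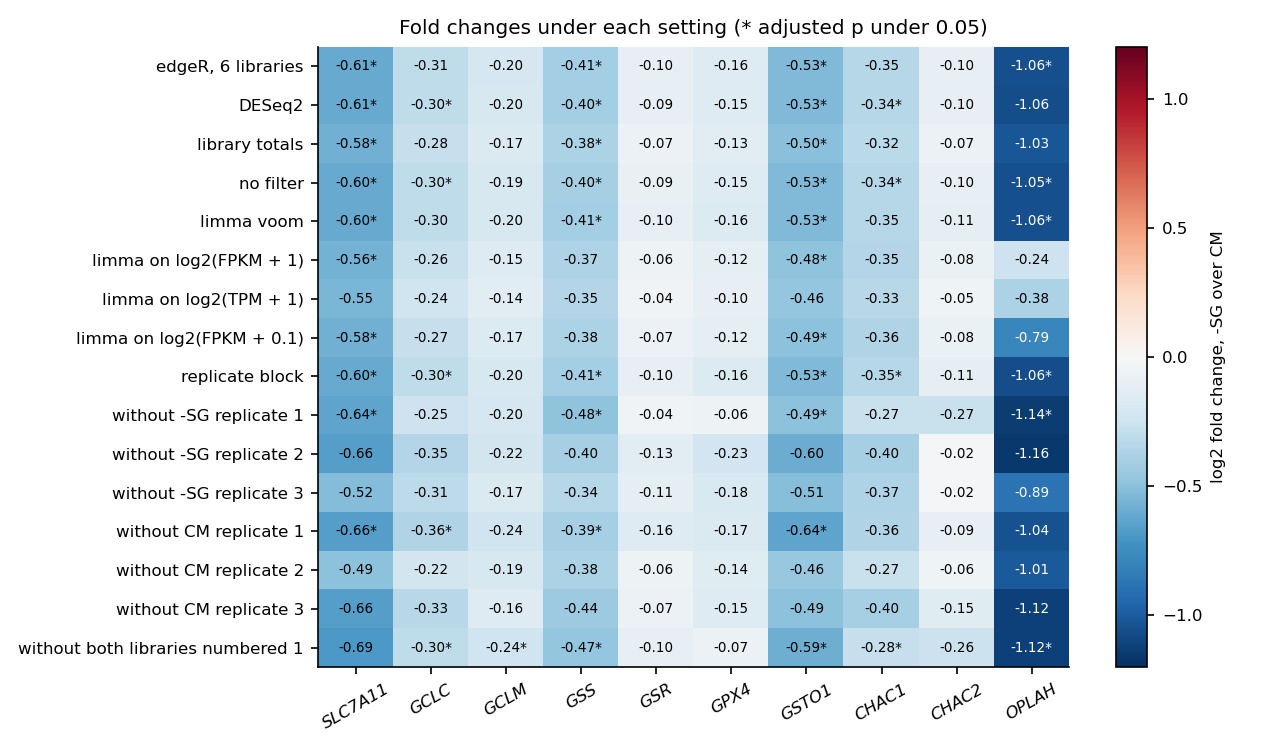
Log2 fold change of -SG over CM for each of the 10 genes (columns) under edgeR with 6 libraries and 15 alternatives (rows), with colour giving the value on a scale centred at 0 and an asterisk an adjusted p under 0.05. All values are negative, and asterisks are absent in the rows without -SG replicate 2 or 3, without CM replicate 2 or 3, and on log2(TPM + 1).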

How the data were processed

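The data are 6 mRNA libraries read on an MGI instrument; titles in the labels give each library's medium and number. The submitters' processing notes name RSEM 1.3.1, Bowtie2 2.3.4.3 and the build GRCh38, without saying what each did. The annotation release and the strand setting are not given in the sources used here. Expected counts, which are estimates, were deposited per gene, and 15.2 to 16.0% per library held a fraction. The authors also deposited FPKM values (per length and library depth) and TPM values (per length, with an equal total in each library), and per-medium means that were not used.

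Expected counts were rounded and tested with edgeR 4.0.16 in R 4.3.3 (filterByExpr with a minimum count of 10 and total of 15, TMM factors of 0.978 to 1.02, robust quasi-likelihood fit, medium as the only term, two-sided). Benjamini-Hochberg adjustment ran over all 12548 genes. The SE is the absolute log2 fold change over the square root of F, and 95% intervals use the test's degrees of freedom. CPM use TMM-scaled totals. Alternatives used DESeq2 1.42.0, limma 3.58.1, library totals, no filter, a replicate block and left-out libraries, on the same genes except without the filter. The procedure was tested on simulated counts.

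The labels do not say that replicate numbers pair libraries. Deviations from group means correlated at 0.326, 0.141 and 0.190 between same-numbered libraries, each over the minimum of 0.1, and at -0.282 to 0.163 between others. Blocked counts are therefore given beside the lists they change. The unlike pair of -SG replicate 2 and CM replicate 3 (0.163) also passed the minimum. Deviations within a medium cancel out, so these correlations depend on each other and cannot decide whether numbers 2 and 3 mark pairs. No pair of libraries agreed within counting noise, so none was treated as a library deposited again; this does not show that they came from separate cultures. Genes named outside the 10 were those called in each list and the 2 with the smallest p, plus SLC3A2, NFE2L2, ATF4 and genes that only the block calls, chosen after values were seen; likeness took the 3 nearest genes. A gene that this rule names among the regulators is not reported here. The members and lists were chosen with earlier results of these data known. Positions are from RefSeq on GRCh38.p14.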

Additional observations from a re-analysis of the deposited data

How the results depend on the processing

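All 10 genes kept a negative log2 fold change in all 15 alternatives. Of 149 adjusted p-values of the 10 genes under these alternatives, 112 stayed on their side of 0.05, 27 lost a call and 10 gained one; DESeq2 left OPLAH without one. With 6 libraries edgeR called 872 genes, 4 of the 10 glutathione genes lower, and 14 lower and 1 higher of the other listed genes. By limma on log2(FPKM + 1), log2(FPKM + 0.1) and log2(TPM + 1), the genes called were 340, 356 and 117, and the glutathione genes lower 2, 2 and 0. The other listed genes were lower in 5, 6 and 1 cases and higher in 0, 0 and 0. At an unadjusted p under 0.05 in these fits, 6 of the 10 glutathione genes were found each time. Beside them, 3277, 3277 and 3211 of the 12548 genes tested passed that threshold, in either direction. DESeq2 gave 3 other listed genes higher. With the replicate block, 3044 genes were called, with 30 other listed genes lower and 6 higher; the block changed the call of GCLC and CHAC1 alone among the 10. Without both libraries numbered 1, 3652 genes were called, with 29 other listed genes lower and 9 higher. Leaving out 1 library gave 0 to 1752 genes, 0 to 4 glutathione genes lower, 0 to 19 other listed genes lower and 0 to 6 higher. The 4 fits with 0 calls by edgeR held 2171 to 2830 genes at an unadjusted p under 0.05, and 6 to 8 of the 10. Counts of all genes were above the 872 in the blocked fit and in those without a library numbered 1 (1322 to 3652), and 0 in those without a library numbered 2 or 3. They were also above 872 by DESeq2 (1238), with no filter (1083) and with library totals (883). The cause of these differences was not tested. Neither ratio between partner genes changed direction. At 10 to 29 counts per library, OPLAH is limited by depth.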
